A study of Mus musculus with 9 samples.

Results

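The rod phototransduction cascade genes are the mouse genes that encode the proteins by which a rod photoreceptor turns absorbed light into an electrical signal. The 9 genes chosen by name were *Gnat1* and *Gngt1* (transducin subunits), *Pde6a*, *Pde6b* and *Pde6g* (phosphodiesterase subunits), *Cnga1* and *Cngb1* (channel subunits), *Sag* (rod arrestin) and *Rcvrn* (recoverin). All 9 were present among the 15228 genes of the deposited expression table, and all 9 were among the 13566 genes that passed the filter on low values (mean RPKM of 0.5 or more, where RPKM is reads per kilobase of exon, scaled to library size). The rule used gene names only and no measured value, but the genes were chosen with earlier results of these data known. Other lists of photoreceptor genes are used for comparison where stated.

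The 9 RNA-seq libraries came from wild-type (WT) mice, C57BL/6J being the strain of the study, and surgery was done at 6 to 8 weeks of age. Ctrl libraries (n = 3) came from uninjured eyes. ONC libraries (n = 3) came from eyes 3 days after optic nerve crush followed by intraocular vehicle, which the labels name as PBS. TPEN libraries (n = 3) came from eyes 3 days after the same crush followed by intraocular TPEN, a membrane-permeable zinc chelator, at 100 µM in 3 µL per eye. Both crush groups thus carried the lesion and an injection, and the labels give neither for Ctrl. Dissociated retinal cells were sorted as CD90.2+ CD48- CD15- CD57- cells, and the labels call them retinal ganglion cells (RGCs). Nothing in the labels ties the 3 libraries of any group to different animals. The p-values therefore measure only the spread between these libraries, which may be technical.

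In the dark, a rod holds its cyclic GMP-gated channel open and lets sodium and calcium in. Light activates transducin, transducin lifts the inhibitory subunit off phosphodiesterase 6, cyclic GMP is hydrolysed and the channel closes. Arrestin and recoverin act on the light receptor and its kinase to end and tune the response. These proteins are made mainly by photoreceptors, with recoverin also known from some cone bipolar cells, and RGCs, the output neurons of the retina, do not use this cascade. Crush of the optic nerve injures the axons of RGCs, whereas rods send no axon into the nerve.

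The libraries held between 19946993 and 23109754 reads, as recovered from the steps of the RPKM values. The 9 genes took 6.15% to 6.31% of the reads of the Ctrl libraries, 5.53% to 5.56% of the ONC libraries and 5.73% to 5.76% of the TPEN libraries. Each gene was read 8171 times or more in every library, so counting error was small against the spread between libraries for most of them. The 10 RGC markers listed differed widely in level, and 3 that are used to define RGCs were low. *Pou4f2* and *Pou4f3*, also sought as RGC markers, were not among the 15228 genes. *Rbpms* lay between 0.246 and 0.688 RPKM over the 9 libraries, *Pou4f1* between 0.0746 and 0.678 RPKM and *Slc17a6* between 0.185 and 0.534 RPKM. *Stmn2* was also low, between 0.551 and 1.27 RPKM. Tubulin gene *Tubb3* lay between 3.27 and 4.83 RPKM and *Thy1*, which encodes the sorted antigen CD90, between 4.54 and 7.58 RPKM. *Sncg* lay between 17.3 and 24.8 RPKM, and the neurofilament genes, which other neurons also express, between 21.5 and 31.8 (*Nefh*), 43.6 and 61.9 (*Nefm*) and 193 and 271 RPKM (*Nefl*). The summed level of the 10 RGC markers listed was 289 to 394 RPKM, against 14611 to 17232 RPKM for the 9 rod cascade genes. In such bulk samples, fewer cells of a type and less RNA per cell cannot be told apart.

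The genes are spread over several chromosomes, and short sequences that they share were looked for in their promoters. RefSeq (GRCm38.p6) gave the 250 bases before the start for 5 of the 9 genes. TAATCC is the core bound by the photoreceptor factors CRX and OTX2, TGCTGA is a half-site bound by NRL and other MAF factors, and TATAAA is the TATA box. Each was searched on both strands, and none of these letters overlap each other in the windows. The promoters of *Sag*, *Pde6b* and *Cngb1* are shown because these windows hold no annotated exon bases of their gene. They are printed 5′ to 3′ on the strand of the gene, with matches in capitals, and lie at chr1:87803430-87803679, chr5:108388123-108388372 and chr8:95306586-95306835.
Sag: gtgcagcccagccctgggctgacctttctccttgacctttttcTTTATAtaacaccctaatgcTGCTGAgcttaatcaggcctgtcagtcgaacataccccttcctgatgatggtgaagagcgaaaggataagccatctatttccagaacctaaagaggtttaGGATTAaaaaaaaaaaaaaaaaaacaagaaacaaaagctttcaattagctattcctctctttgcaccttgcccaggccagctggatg
Pde6b: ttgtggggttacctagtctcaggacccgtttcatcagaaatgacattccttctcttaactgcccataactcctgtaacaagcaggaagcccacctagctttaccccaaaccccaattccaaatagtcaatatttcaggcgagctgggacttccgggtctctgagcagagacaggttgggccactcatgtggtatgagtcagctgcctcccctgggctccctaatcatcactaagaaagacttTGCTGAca
Cngb1: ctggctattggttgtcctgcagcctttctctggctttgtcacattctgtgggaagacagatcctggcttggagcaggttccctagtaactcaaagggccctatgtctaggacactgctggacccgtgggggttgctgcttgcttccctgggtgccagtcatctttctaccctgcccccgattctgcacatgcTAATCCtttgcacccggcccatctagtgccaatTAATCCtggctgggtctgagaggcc

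*Cngb1* held TAATCC beginning at -58 and at -25 from its start, and *Sag* held it at -87 as GGATTA, its reverse complement. *Gngt1* held GGATTA at -44 and *Cnga1* held TAATCC at -228. The *Cnga1* window lies in annotated exons in all of its 250 bases and that of *Gngt1* in 216, since other transcripts of these genes begin further upstream, so only the other 3 windows lie wholly before the gene. TAATCC or its complement was present in 4 of the 5 windows, those of *Cnga1* and *Gngt1* among them, and in 6.25% of 32851 RefSeq promoter windows of the same length. TGCTGA was present in *Sag* at -187 and *Pde6b* at -8, in 2 of the 5, against 16.1% of all windows. TTTATA, the complement of TATAAA, was present in *Sag* at -207 and *Gngt1* at -133, in 2 of the 5, against 12.4% of all windows. A match is a description of the letters and not evidence of binding.

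The genes lie at chr9:107674474-107679712 (*Gnat1*, minus strand), chr6:3993792-3997436 (*Gngt1*, plus), chr18:61220482-61289924 (*Pde6a*, plus), chr5:108388391-108432397 (*Pde6b*, plus) and chr11:120447605-120453500 (*Pde6g*, minus) in GRCm38. The others lie at chr5:72603696-72644275 (*Cnga1*, minus), chr8:95239045-95306585 (*Cngb1*, minus), chr1:87803680-87845158 (*Sag*, plus) and chr11:67695326-67703333 (*Rcvrn*, plus). *Pde6a* overlaps *Rps2-ps10*, *Cnga1* overlaps *Gm5297* and *Rcvrn* overlaps *Glp2r*, each with 0 shared exon bases.

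In these libraries the rod genes were among the most abundant transcripts. By mean RPKM over the 9 libraries, *Gnat1* ranked 2 of 15228 genes at 10642 RPKM and *Pde6a* ranked 25 at 1508 RPKM. *Pde6b* followed at 793 RPKM, *Sag* at 622, *Gngt1* at 540.2, *Cnga1* at 461, *Cngb1* at 398, *Rcvrn* at 389.5 and *Pde6g* at 352 RPKM, which ranked 94. *Gnat1* alone took 2.91% to 3.65% of the reads of a library. Ranges over the 9 libraries overlapped between the neighbours *Sag* and *Gngt1*, *Gngt1* and *Cnga1*, *Cngb1* and *Rcvrn*, and *Rcvrn* and *Pde6g*, so those ranges did not separate the pairs. Within a library, the first-named gene of each pair was the higher one in 8 of 9 libraries, other than *Cngb1* and *Rcvrn*, with 5 of 9.

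This order depended on gene length. For 8 of the 9 genes the length column of the table equalled the union of all GENCODE M21 exons, which for *Sag* is 8904 bases against 1719 bases for its principal coding transcript. Divided by the principal transcript length, a choice made after seeing the data, *Gnat1* stayed first at 13846 scaled reads per kilobase. *Sag* moved from the fourth to the second place at 3223, which is 5.18 times its table value. *Gngt1* (1605), *Pde6a* (1486) and *Pde6b* (1425) then formed a group whose ranges overlapped between neighbours, above *Cnga1* (1066), *Pde6g* (906), *Cngb1* (602) and *Rcvrn* (389.5). Differences between groups within a gene do not depend on this length.

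**Figure D1:**
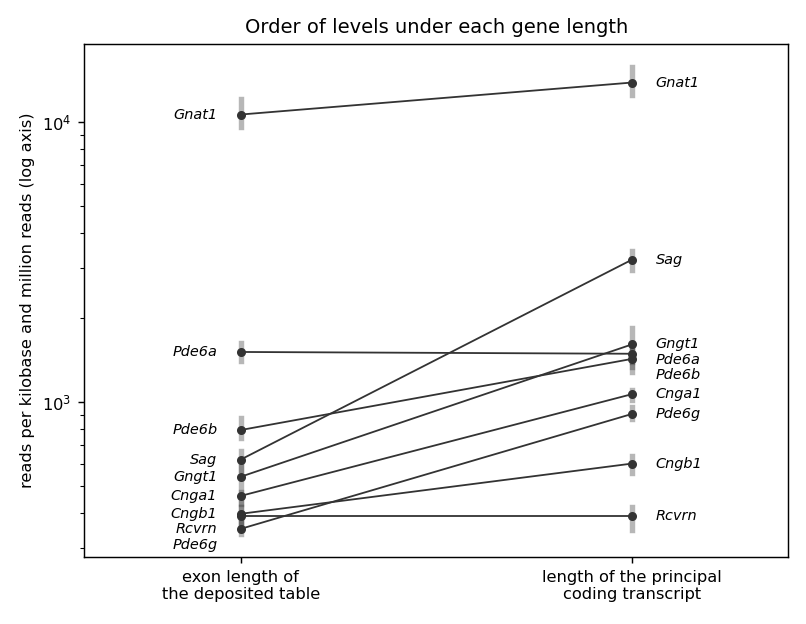
Level of each of the 9 genes in reads per kilobase, scaled to library size (log axis), with the exon length of the deposited table on the left and the principal transcript length on the right. Points are means over 9 libraries and grey bars the range over the libraries. *Gnat1* is highest under both lengths, and *Sag* rises from 622 to 3223.

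The comparison of ONC with Ctrl asks which transcripts differed in the sorted cells 3 days after crush. The genes of transducin α, the catalytic and inhibitory phosphodiesterase subunits and recoverin were lower after crush, and arrestin was slightly higher. By limma, 5 of the 9 genes fell (*Gnat1*, *Pde6a*, *Pde6b*, *Pde6g* and *Rcvrn*) at an adjusted p under 0.05, when 6.97% of all 13566 genes tested fell. *Sag* rose, when 11.7% of all genes rose, and *Gngt1*, *Cnga1* and *Cngb1* did not pass the test. All changes were small. The largest fall was 14.9% in mean level (*Gnat1*), and 0 of the 9 reached the 1.5-fold change that the study required of a DEG, which 5.34% of all genes reached. Among the 94 genes at least as abundant as *Pde6g*, these 9 included, 19.1% fell and 26.6% rose. The split of all genes between higher and lower moved with the scaling, from 1590 higher and 946 lower to 1262 and 1428 under quantile normalization and 1172 and 1602 with the length trend removed. The rise of *Sag* was lost in 14 of 20 alternative fits. Its log2 fold change of 0.08 was 0.03 under quantile normalization (adjusted p = 0.521), and the call was also lost under median ratio scaling (0.118), and in 8 of the 9 fits that left out 1 library, all but the one without TPEN replicate 1 (highest adjusted p = 0.127, without ONC replicate 3). The fall of *Pde6g* was lost without replicate 1 of Ctrl (adjusted p = 0.0553) or of ONC (0.0564), and without ONC replicate 2 (0.0538).

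The comparison of TPEN with ONC asks which transcripts differed with TPEN in place of vehicle after the same crush. *Pde6a* and *Rcvrn* were higher with TPEN and *Sag* was lower, so the genes did not move as a group. Among the 9 genes, 2 rose, when 3.24% of all genes rose, and 1 fell, when 4.14% of all genes fell. The other 6 did not pass, and 0 of the 9 reached 1.5-fold, which 2.03% of all genes reached. The median of the 9 log2 fold changes was -0.0048, against -0.011 for all genes. Over all genes 440 were higher and 562 lower, or 535 and 457 under quantile normalization. Among the 94 most abundant genes, 12.8% rose and 12.8% fell. The call of *Pde6a* was lost under quantile normalization (0.04, adjusted p = 0.249) and without ONC replicate 1, ONC replicate 2 or TPEN replicate 3 (adjusted p = 0.0684, 0.0550 and 0.0568), whereas *Sag* and *Rcvrn* were called in all 20 alternative fits run.

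The comparison of TPEN with Ctrl sets the chelator-treated crush against the uninjured state. By limma, 6 of the 9 genes were lower (*Gnat1*, *Pde6a*, *Pde6b*, *Pde6g*, *Cngb1* and *Sag*), when 5.01% of all genes were lower, and 0 were higher, when 8.36% of all genes were higher. At an unadjusted p under 0.05, and by voom on whole reads, the count on the higher side was also 0. None reached 1.5-fold (3.91% of all genes did). Over all genes 1134 were higher and 680 lower, or 900 and 830 under quantile normalization and 872 and 1195 with the length trend removed. Among the 94 most abundant genes, 21.3% were lower and 22.3% higher. Only *Pde6b* held this call in all 20 alternative fits. The count of 6 became 3 with only the 6 Ctrl and TPEN libraries in the fit. It became 2 without Ctrl replicate 1, TPEN replicate 1 or TPEN replicate 3, and 3 without ONC replicate 1. The comparisons share libraries (ONC/Ctrl and TPEN/ONC share ONC, ONC/Ctrl and TPEN/Ctrl share Ctrl), so their values are given side by side only.

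Over all 9 libraries, the moderated F of limma found a difference among the groups for 7 of the 9 genes, and for 20.7% of all genes. The exceptions were *Gngt1* (adjusted p = 0.930) and *Cnga1* (adjusted p = 0.601).

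**Figure D2:**
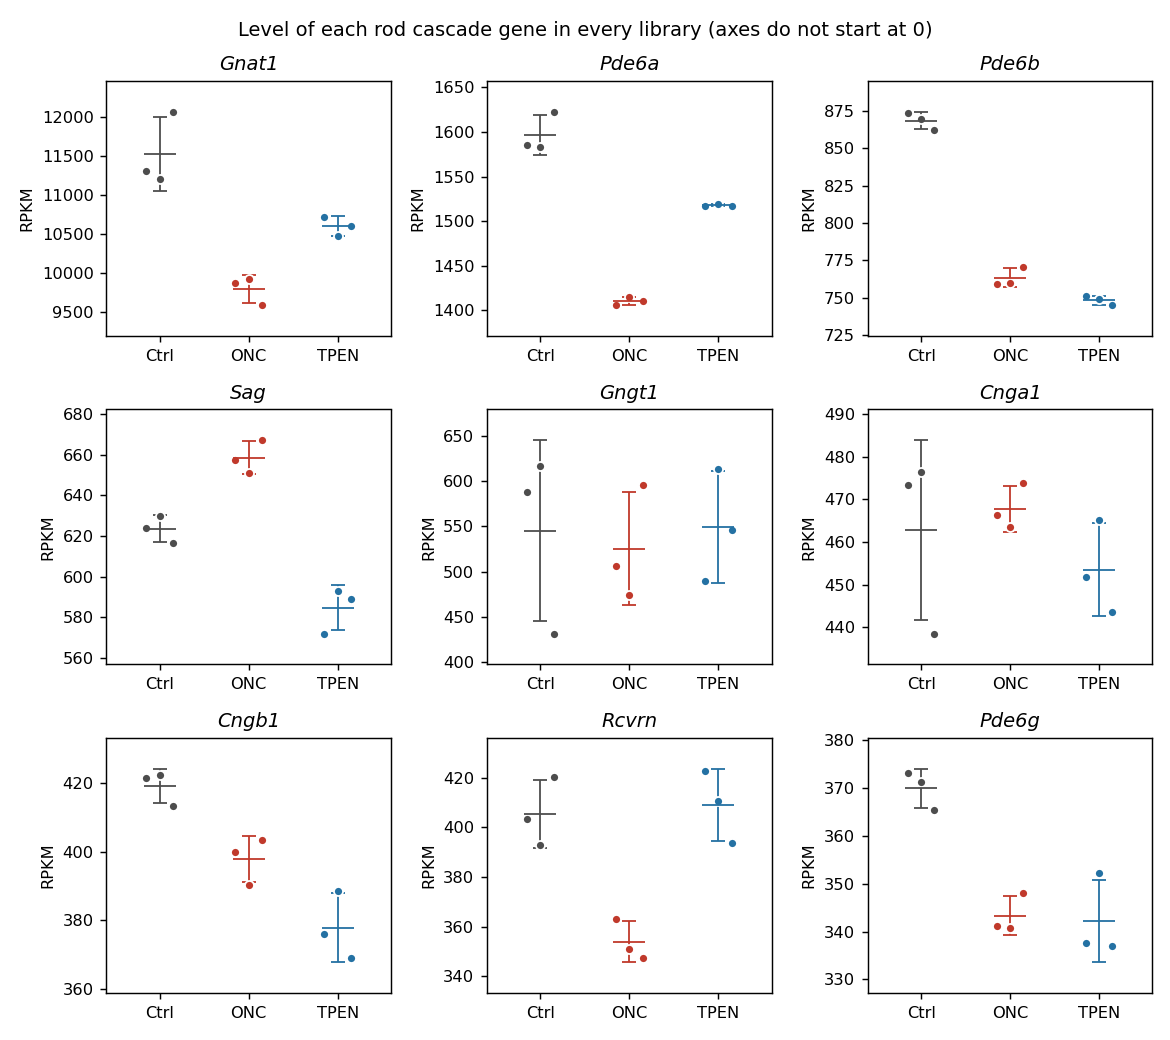
RPKM of each of the 9 genes (y axis, not starting at 0) in every library of the Ctrl, ONC and TPEN groups. Points are libraries, and the horizontal bar and whiskers are the mean and SD of 3 libraries. *Gnat1*, *Pde6a* and *Rcvrn* are lowest in ONC, *Pde6b*, *Pde6g* and *Cngb1* are lower than Ctrl in both crush groups, *Sag* is highest in ONC, and *Gngt1* and *Cnga1* overlap throughout.

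*Gnat1* encodes the α subunit of rod transducin, the G protein that carries the signal from the light receptor. Its level was 11303, 11199 and 12062 RPKM in the 3 Ctrl libraries, 9879, 9934 and 9594 RPKM in ONC, and 10723, 10472 and 10606 RPKM in TPEN. The groups did not overlap, with Ctrl highest, TPEN between and ONC lowest. The difference of ONC from Ctrl was -0.23 on the log2 scale (SE 0.0330, adjusted p = 9.06e-04). TPEN lay above ONC by 0.11 (adjusted p = 0.0733, 95% interval 0.04 to 0.19), which did not pass the test. It passed in 4 of 20 alternative fits: with only the 6 libraries compared (adjusted p = 0.0218), by voom (4.17e-06), with the length trend removed (0.0273) and without Ctrl replicate 3 (0.00806). TPEN differed from Ctrl by -0.12 (adjusted p = 0.0415). That last call was lost in 12 of 20 alternative fits, among them those without Ctrl replicate 1 (adjusted p = 0.0696) and without any 1 of the 3 TPEN libraries (0.0804, 0.121 and 0.108) or of the 3 ONC libraries (0.0733, 0.0658 and 0.0525).

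*Gngt1* encodes the γ subunit of rod transducin, which tethers the complex to the disc membrane. Its level was 588, 617 and 431 RPKM in Ctrl, 506, 474 and 596 RPKM in ONC, and 489.8, 614 and 546 RPKM in TPEN. The 3 groups overlapped fully. The coefficient of variation between Ctrl libraries was 18.3%, against 0.486% expected from counting alone, so this spread was larger than counting error. Ctrl replicate 3 held both the lowest *Gngt1* and the highest *Gnat1* value of the 9 libraries. The difference of ONC from Ctrl was -0.04 with a 95% interval of -0.35 to 0.27 (limma, adjusted p = 0.868), wide enough to hold changes larger than those called for other genes. Leaving out 1 library turned its sign, to 0.02 and 0.05 without Ctrl replicates 1 and 2 and to 0.03 without ONC replicate 2.

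*Pde6a* and *Pde6b* encode the catalytic α and β subunits of rod phosphodiesterase 6, which pair to form the enzyme core. *Pde6a* was at 1585, 1583 and 1623 RPKM in Ctrl, 1406, 1415 and 1410.4 RPKM in ONC, and 1517, 1519 and 1517 RPKM in TPEN. The groups did not overlap, and TPEN lay between ONC and Ctrl. The TPEN libraries agreed within 0.0706% (coefficient of variation), less than the 0.265% that counting alone would give. *Pde6a* fell by 0.18 on the log2 scale in ONC/Ctrl (SE 0.0205, limma adjusted p = 2.33e-04) and rose by 0.11 in TPEN/ONC (adjusted p = 0.0144). It fell by 0.07 in TPEN/Ctrl (adjusted p = 0.0440), a difference that turned to 0.01 when libraries were scaled to other rod genes. That call was lost in 8 of the 9 fits that left out 1 library, all but the one without Ctrl replicate 3, with adjusted p-values from 0.0646 to 0.118.

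*Pde6b* followed another order. It was at 874, 869 and 862 RPKM in Ctrl, 759, 760.1 and 771 RPKM in ONC, and 751, 749 and 745 RPKM in TPEN. Both crush groups lay below every Ctrl library, and every TPEN library lay below every ONC library by a small margin. *Pde6b* fell by 0.19 in ONC/Ctrl (SE 0.0197, limma adjusted p = 1.39e-04) and by 0.22 in TPEN/Ctrl (adjusted p = 8.52e-05). The difference between TPEN and ONC was -0.03 (95% interval -0.07 to 0.02, adjusted p = 0.449).

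*Pde6g* encodes the inhibitory γ subunit that holds the enzyme off in the dark. Its level was 373, 371 and 365 RPKM in Ctrl, 341, 341 and 348 RPKM in ONC, and 338, 352 and 337 RPKM in TPEN. Both crush groups lay below Ctrl and overlapped each other. *Pde6g* fell by 0.11 in ONC/Ctrl (limma adjusted p = 0.0139) and by 0.11 in TPEN/Ctrl (adjusted p = 0.0154), and TPEN differed from ONC by -0.0048 (95% interval -0.06 to 0.05, adjusted p = 0.941). The TPEN/Ctrl call was lost without Ctrl replicate 1, TPEN replicate 1 or TPEN replicate 3 (adjusted p = 0.0601, 0.0591 and 0.0640).

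*Cnga1* encodes the pore-forming α subunit of the rod cyclic GMP-gated channel. Its level was 473, 476 and 439 RPKM in Ctrl, 466, 463 and 474 RPKM in ONC, and 452, 465 and 444 RPKM in TPEN. The groups overlapped in every comparison, and Ctrl replicate 3 was the lowest library. The difference of ONC from Ctrl was 0.02 (95% interval -0.06 to 0.09, limma adjusted p = 0.790) and changed sign between scalings.

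*Cngb1* encodes the β subunit that completes the channel and carries its modulatory sites. Its level was 422, 422 and 413 RPKM in Ctrl, 399.8, 390.4 and 403 RPKM in ONC, and 376, 389 and 369 RPKM in TPEN. The groups did not overlap and descended from Ctrl to ONC to TPEN. ONC differed from Ctrl by -0.08 (limma adjusted p = 0.0767), which did not pass, although it did under median ratio scaling, quantile normalization and voom, and its sign turned (0.02) when libraries were scaled to other rod genes. *Cngb1* fell by 0.15 in TPEN/Ctrl (SE 0.0262, adjusted p = 0.00457), and TPEN differed from ONC by -0.07 without passing (adjusted p = 0.129).

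*Sag* encodes rod arrestin, which binds the activated receptor and stops it from reaching transducin. Its level was 624, 630.0 and 617 RPKM in Ctrl, 657, 651 and 667 RPKM in ONC, and 572, 593 and 589 RPKM in TPEN. The groups did not overlap, with ONC highest and TPEN lowest, an order that no other gene of the 9 showed without overlap. *Sag* rose by 0.08 in ONC/Ctrl (SE 0.0231, limma adjusted p = 0.0421), was 0.17 lower in TPEN/ONC (log2 difference -0.17, adjusted p = 0.00238) and fell by 0.09 in TPEN/Ctrl (adjusted p = 0.0270). The TPEN/Ctrl call was lost without Ctrl replicate 1 or 2, ONC replicate 1, or TPEN replicate 1 or 3 (adjusted p from 0.0514 to 0.0947).

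*Rcvrn* encodes recoverin, the calcium sensor that holds back the receptor kinase in the dark. Its level was 403, 393 and 420.3 RPKM in Ctrl, 363, 351 and 347 RPKM in ONC, and 423, 411 and 394 RPKM in TPEN. Every ONC library lay below every Ctrl and TPEN library, and Ctrl and TPEN overlapped. *Rcvrn* fell by 0.20 in ONC/Ctrl (SE 0.0349, limma adjusted p = 0.00343) and rose by 0.21 in TPEN/ONC (adjusted p = 0.00688). The difference of TPEN from Ctrl was 0.01 (95% interval -0.07 to 0.09, adjusted p = 0.863).

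**Figure D3:**
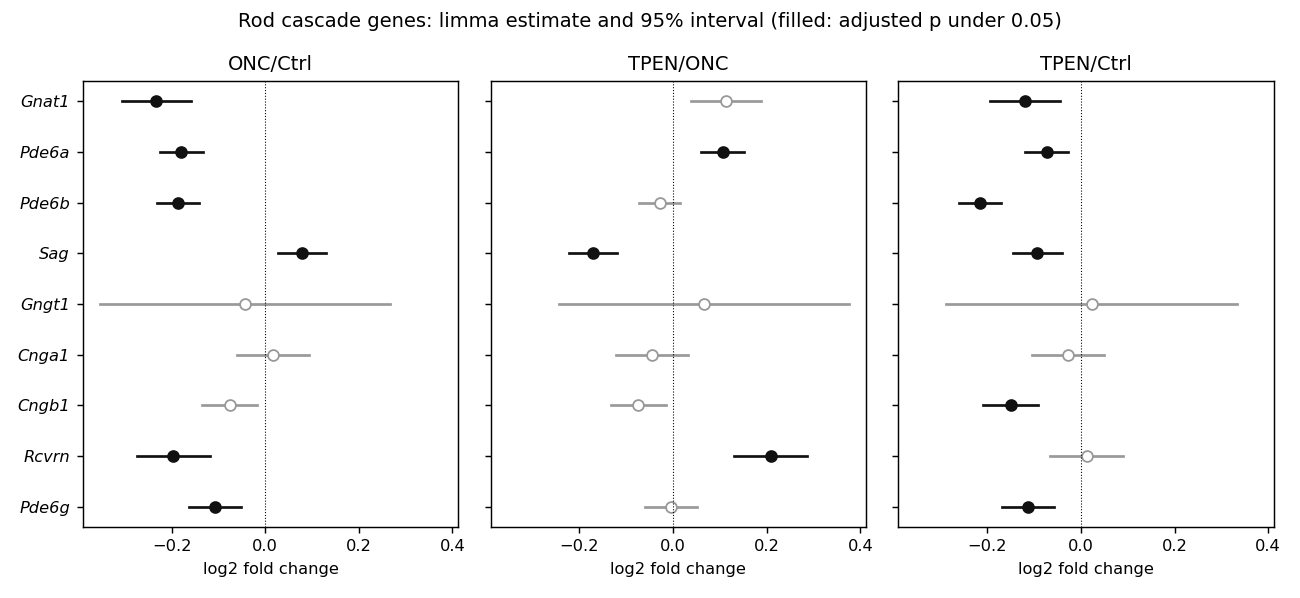
log2 fold change of each of the 9 genes in ONC/Ctrl, TPEN/ONC and TPEN/Ctrl (x axis), estimated by limma from 9 libraries. Lines are 95% intervals, and filled points have an adjusted p under 0.05. The interval of *Gngt1* is the widest, and *Sag* is the called gene on the higher side in ONC/Ctrl.

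Non-overlap of libraries was also common among all genes. Every ONC library lay below every Ctrl library for 6 of the 9 genes, against 15.8% of all genes, and above for *Sag*, against 20.7%. In TPEN/ONC, every library lay higher for *Gnat1*, *Pde6a* and *Rcvrn* (12.5% of all genes) and lower for *Pde6b*, *Cngb1* and *Sag* (15.6%). In TPEN/Ctrl, every library lay lower for 6 genes (13.3%) and higher for none (18.1%).

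Genes for subunits of a complex were also set against each other within each library, where a scaling factor common to all genes cancels out. A trend with gene length does not cancel, and the ratios were not tested with that trend removed. The size of each ratio depends on the gene lengths of the deposited table and is not a ratio of molecules. Under those lengths *Pde6a* and *Pde6b* averaged 1508 and 793, against 1486 and 1425 under principal transcript lengths. On the log2 scale, group differences in a ratio of single genes do not depend on these lengths. For the catalytic pair, the mean ratio of *Pde6a* to *Pde6b* was 1.84 in Ctrl, 1.85 in ONC and 2.03 in TPEN. On the log2 scale every TPEN library (1.01 to 1.03) lay above every ONC and Ctrl library (0.86 to 0.91), and ONC and Ctrl overlapped. An exact permutation test over the 3 groups (280 distinct splits, smallest possible p 0.00357) gave p = 0.0286, or 0.0476 adjusted over the 4 ratios tested. The ratio of *Pde6g* to the sum of *Pde6a* and *Pde6b* was 0.150 in Ctrl, 0.158 in ONC and 0.151 in TPEN. Every ONC library lay above every Ctrl and TPEN library, and TPEN and Ctrl overlapped (exact permutation p = 0.0357, adjusted 0.0476). With the length trend removed, the ONC/Ctrl log2 fold changes were -0.21 (*Pde6g*), -0.24 (*Pde6a*) and -0.24 (*Pde6b*). Without that step they were -0.11, -0.18 and -0.19.

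For the channel, the ratio of *Cnga1* to *Cngb1* was 1.10 in Ctrl, 1.18 in ONC and 1.20 in TPEN. The length used for *Cngb1* (9355 bases) is the exon union of 10 annotated transcripts, against 6189 bases for its principal transcript. The ratio thus covers the whole gene and need not be limited to transcripts of the channel subunit. The libraries lay at 0.09 to 0.17 on the log2 scale in Ctrl, 0.22 to 0.25 in ONC and 0.26 to 0.27 in TPEN. The 3 groups did not overlap, and the exact permutation p of 0.00357 is the smallest this design can give (adjusted 0.0143). For transducin, the ratio of *Gnat1* to *Gngt1* was 21.8 in Ctrl, 18.9 in ONC and 19.5 in TPEN, with overlap in every comparison (exact permutation p = 0.721). With 1 library left out, the adjusted p of the *Pde6a* to *Pde6b* result reached 0.0714 without replicate 1 or 2 of Ctrl, or without ONC replicate 2. It was 0.0571 without ONC replicate 1, TPEN replicate 1 or TPEN replicate 3. The *Pde6g* result was above 0.05 without any library other than TPEN replicate 2, at 0.0762 to 0.129.

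**Figure D4:**
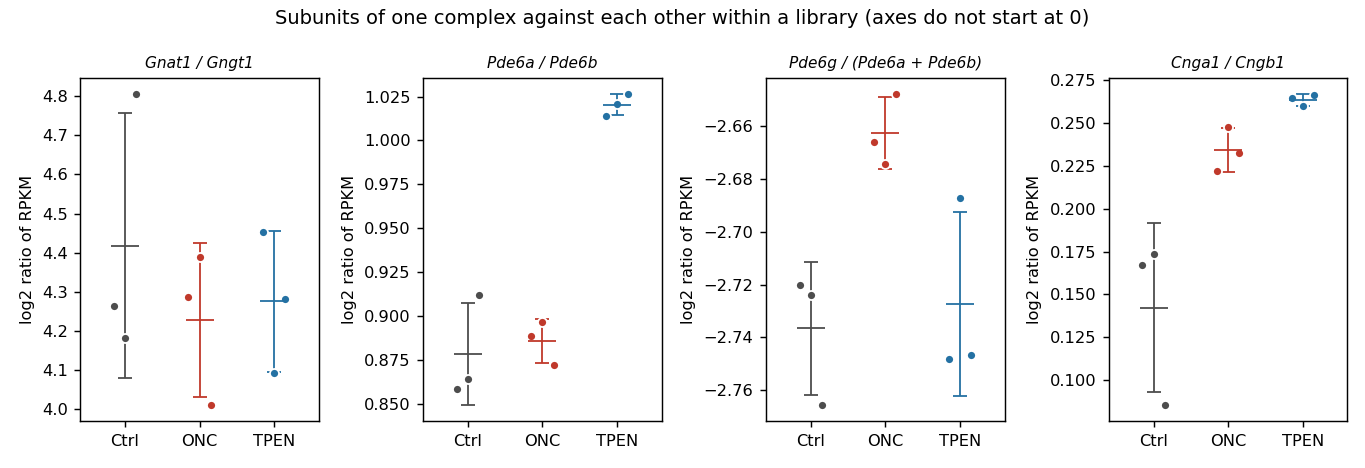
log2 ratio of RPKM between subunits of one complex in each library (y axis, not starting at 0), by group. Points are libraries, and the horizontal bar and whiskers are the mean and SD of 3 libraries. *Pde6a*/*Pde6b* is higher in TPEN alone, and *Cnga1*/*Cngb1* is separate in all 3 groups. The size of a ratio depends on the gene lengths used.

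The 9 genes summed to 16646, 16562 and 17232 RPKM in Ctrl, 14778, 14779 and 14611 RPKM in ONC, and 15641, 15563 and 15547 RPKM in TPEN. ONC lay 12.4% below Ctrl, TPEN lay 5.85% above ONC and 7.31% below Ctrl, and the groups did not overlap. *Gnat1* made up most of this sum. The other 8 genes summed to 5170.4 to 5362 RPKM in Ctrl, 4846 to 5016 RPKM in ONC and 4918 to 5091 RPKM in TPEN, where ONC and TPEN overlapped.

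Of 15 partners of the members in the rod cascade (kinase, phosducin, RGS complex, guanylate cyclases and their activators, exchanger and chaperones), 7 fell in ONC/Ctrl (6.97% of all genes fell) and 0 rose (11.7%), with a median log2 fold change of -0.11, against 0.017 for all genes. The largest falls were those of *Gucy2f*, a membrane guanylate cyclase (-0.39, limma adjusted p = 4.00e-05), and *Pdc*, phosducin, which binds transducin βγ (-0.37, adjusted p = 2.18e-04). *Gnb1*, the transducin β subunit, fell by 0.23, and *Rgs9bp*, the anchor of the RGS9 complex, by 0.26. *Grk1*, the receptor kinase, *Guca1b*, a cyclase activator, and *Unc119*, a chaperone of transducin α, fell by 0.15, 0.23 and 0.13. In TPEN/ONC, 4 partners rose (*Gnb1* 0.14, *Pdc* 0.18, *Rgs9* 0.14 and *Gucy2f* 0.30), when 3.24% of all genes rose. *Aipl1*, the chaperone of phosphodiesterase 6, fell by 0.13, when 4.14% of all genes fell, and the median of the list was 0.006. In TPEN/Ctrl, 6 partners fell (*Pdc*, *Grk1*, *Rgs9bp*, *Guca1b*, *Gucy2e* and *Aipl1*), when 5.01% of all genes fell, and 0 rose, when 8.36% did, with a median of -0.09. At an unadjusted p under 0.05, 0 partners were higher in ONC/Ctrl and 1, *Rgs9* (0.06), in TPEN/Ctrl.

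Since most of the called genes in both lists fell in ONC/Ctrl, the fit was repeated with each library scaled to the median of 27 rod partner and outer segment genes, a choice made after seeing the data that sets the median of those 27 genes equal in all libraries by construction. Under this scaling the median of the 9 genes in ONC/Ctrl was -0.011 in place of -0.11, while the median of all genes was 0.11 (3236 genes higher and 453 lower in ONC/Ctrl, 2378 and 300 in TPEN/Ctrl). *Gnat1* (-0.14), *Pde6a* (-0.08) and *Pde6b* (-0.09) remained lower in ONC by limma (adjusted p = 0.0152, 0.0217 and 0.0205), and *Sag* remained higher (0.18, adjusted p = 9.55e-04). *Pde6g* (-0.01) and *Rcvrn* (-0.10) no longer passed (adjusted p = 0.806 and 0.0602). In TPEN/ONC the same 3 genes passed with the same signs, and in TPEN/Ctrl *Pde6b* alone passed (-0.13, adjusted p = 0.00495).

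**Figure D5:**
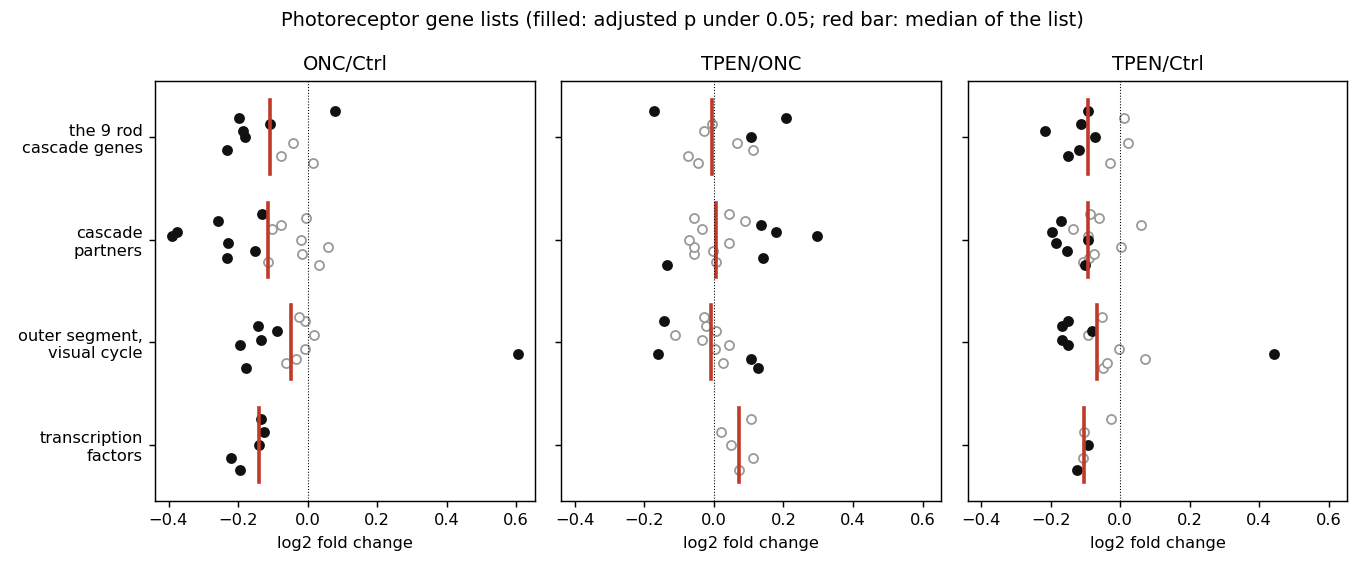
log2 fold change (x axis) of each gene in the 9 rod cascade genes, 15 cascade partners, 12 outer segment and visual cycle genes and 5 photoreceptor transcription factors, in ONC/Ctrl, TPEN/ONC and TPEN/Ctrl. Filled points have an adjusted p under 0.05 and red bars are medians of a list. Medians lie below 0 in ONC/Ctrl and TPEN/Ctrl and between -0.0095 and 0.07 in TPEN/ONC, and the point at 0.60 is *Impg2*.

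Markers of other cells moved with the groups as well. The 9 microglia and macrophage markers tested all rose in ONC/Ctrl, when 11.7% of all genes rose. The 10 listed summed to 9.05 to 9.43 RPKM in Ctrl, 53.6 to 55.6 RPKM in ONC and 31.2 to 35.2 RPKM in TPEN, with *Ptprc* lowest at 0.0517 RPKM in Ctrl and none at 0 in any library. The 11 cone cascade genes summed to 161 to 167 RPKM in Ctrl, 189 to 199 RPKM in ONC and 273 to 275 RPKM in TPEN. The rise of this sum after crush was that of *Gnb3*, which ON bipolar cells also express and which lay between 19.4 and 22.4 RPKM in Ctrl, 66.0 and 68.0 RPKM in ONC and 56.9 and 58.8 RPKM in TPEN. The other 10 summed to 138 to 146 RPKM in Ctrl, 123 to 131 RPKM in ONC and 214 to 218 RPKM in TPEN. Of the 11, 2 rose and 4 fell in ONC/Ctrl, when 11.7% of all genes rose and 6.97% fell. In TPEN/ONC, 8 rose and 1 fell, when 3.24% of all genes rose and 4.14% fell. The part of these lists in the changes of the 9 genes was not tested.

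The patterns most like the 9 genes were sought over the 4298 genes averaging 10 RPKM or more, by Pearson r of log2 level with the mean of the 9 genes over the 9 libraries. The highest were *Prdm9* (r = 0.978), *Tfrc* (0.976), *Rpgrip1* (0.958), *Rabep1* (0.954) and *E330034L11Rik* (0.953). *Rpgrip1* was at 286 ± 7.36 RPKM in Ctrl (SD, n = 3), 233 ± 4.16 RPKM in ONC and 243 ± 4.12 RPKM in TPEN. *Prdm9* was at 29.8 ± 1.13, 25.7 ± 0.782 and 26.8 ± 1.51 RPKM in the same order. *Rpgrip1* overlaps *Supt16* and *Rabep1* overlaps *Nup88* in the annotation. Among the 9 genes themselves, r with their mean ran from 0.961 (*Pde6g*) and 0.875 (*Pde6b*) down to 0.354 (*Cnga1*) and -0.024 (*Sag*). The 9 points share library depth and group, so these r values only describe likeness.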

How the data were processed

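Total RNA of sorted retinal cells was made into stranded mRNA libraries with molecular identifiers and sequenced. The authors mapped reads to GRCm38/mm10 with STAR v2.5.3a, and the submitters' processing notes name Trimmomatic 0.36. The authors deposited 1 table of RPKM values per gene and library. The counting program, annotation and use of the identifiers are not given in the sources used here. The fold changes and p-values that the authors deposited beside them, from edgeR v3.12.1, were not used.

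RPKM times the length column gave whole reads for 100% of values (tolerance 0.01 read). Genes averaging 0.5 RPKM or more entered limma 3.58.1 (R 4.3.3) as log2(RPKM + 0.1), with a variance trend, 1 coefficient per group over 9 libraries and Benjamini-Hochberg adjustment over 13566 genes. Fold changes are on this log2(RPKM + 0.1) scale, and the pseudocount is negligible at the levels of these genes. The code was tested on simulated data. Subunit ratios were tested by exact permutation with numpy 2.4.6.

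The members and all gene lists were chosen with earlier results of these data known. Genes named beyond the 9 are list genes past an adjusted p of 0.05 or among the most abundant of a list, the cell type markers used to check the labels (outside the rule and named after their values were seen), and the 5 non-members most like the mean of the 9. Promoter windows came from RefSeq (5 of 9 genes), transcript lengths from GENCODE M21. Alternatives covered scaling, filters, pseudocount, voom, a length trend, the samples in the fit and each library left out.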

Additional observations from a re-analysis of the deposited data

How the results depend on the processing

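Of 540 values (27 gene comparisons under 20 alternatives), 438 kept direction and call, 62 lost a call, 10 gained one and 30 changed sign. *Pde6a* and *Pde6b* in ONC/Ctrl, *Sag* and *Rcvrn* in TPEN/ONC and *Pde6b* in TPEN/Ctrl passed in all 20. The number of the 9 genes called in TPEN/ONC (3) was 5 with voom on whole reads, which called 740 genes higher and 948 lower against 440 and 562, and 2 to 4 with 1 library left out. In TPEN/Ctrl (6) it was 3 with only the 6 libraries compared, 1 scaled to rod partner and outer segment genes, and 2 to 6 with 1 library left out. In ONC/Ctrl (6) it was 7 with voom and 4 to 6 under the other alternatives. Over all genes, leaving out an ONC or TPEN library lowered the TPEN/ONC calls to between 247 and 282 higher and 279 and 359 lower for 5 of the 6 libraries. With fewer libraries the fit has fewer degrees of freedom. For other changes the cause was not tested.

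Sign changes concerned genes that had not passed the test, other than *Pde6a* in TPEN/Ctrl, which was 0.013 under rod gene scaling. *Cnga1* in ONC/Ctrl was -0.023 by quantile normalization, -0.0035 by median ratio scaling, -0.0022 with totals without photoreceptor reads and -0.025 with the length trend removed. It was 0.0060 in TPEN/ONC by quantile normalization and 0.058 in TPEN/Ctrl by rod gene scaling. Rod gene scaling turned *Cngb1* (0.022) and *Gngt1* (0.054) in ONC/Ctrl. *Pde6g* in TPEN/ONC was 0.040, 0.0022 and 0.031 by quantile, median ratio and length correction. *Gngt1* in TPEN/Ctrl was -0.019 by quantile and -0.025 by length correction. *Rcvrn* in TPEN/Ctrl was -7.1e-04 by median ratio, -0.0019 without photoreceptor reads and -0.052 by length correction. With 1 library left out, *Cnga1* ranged from -0.022 to 0.038 and *Gngt1* from -0.20 to 0.054 in ONC/Ctrl, *Gngt1* from -0.017 to 0.16 and *Pde6g* from -0.025 to 0.0061 in TPEN/ONC, and *Gngt1* from -0.14 to 0.12 and *Rcvrn* from -0.012 to 0.040 in TPEN/Ctrl. Quantile normalization sets *Gnat1* to a change of 0 by construction, since it has the same rank in every library.

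The summed level in TPEN/ONC (5.85%) was 3.67% as a share of reads. With 1 library left out, the adjusted p of *Pde6a*/*Pde6b* ranged from 0.0143 to 0.0714 and that of *Pde6g*/(*Pde6a* + *Pde6b*) from 0.0381 to 0.129. Same-numbered libraries did not deviate together (9 correlations from -0.062 to 0.027), so these values showed no pairing by replicate number. The labels do not say whether same-numbered libraries were handled together. With a replicate block in the fit, 5, 2 and 3 of the 9 genes were called in ONC/Ctrl, TPEN/ONC and TPEN/Ctrl, and adjusted p-values were 0.148, 0.148 and 0.111 for *Pde6a*/*Pde6b*, *Pde6g*/(*Pde6a* + *Pde6b*) and *Cnga1*/*Cngb1*. That permutation has too few splits to say much about stability.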

Other observations

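Among 12 genes of the rod outer segment and the visual cycle, 5 fell, 1 rose and 6 had no call in ONC/Ctrl by limma, when 6.97% of all genes fell and 11.7% rose. The 5 were *Prph2* and *Rom1*, which shape the disc rim (-0.19 and -0.09), *Rp1*, which organises discs along the axoneme (-0.14), *Abca4*, a retinoid transporter (-0.18), and *Rdh12*, a retinol dehydrogenase (-0.13). *Impg2*, a proteoglycan of the matrix around photoreceptors, rose by 0.60 (SE 0.0262, adjusted p = 3.15e-07), and was 0.44 above Ctrl in TPEN (adjusted p = 4.72e-06). The median of the list was -0.05. Rod gene scaling, which raised the median of all genes from 0.017 to 0.11, would place *Rom1* near 0. In TPEN/ONC 2 of the 12 rose (*Abca4* 0.13 and *Impg1* 0.11) and 2 fell (*Impg2* by 0.16 and *Rp1l1* by 0.14). Of all genes, 3.24% rose and 4.14% fell in that comparison. In TPEN/Ctrl 1 was higher and 5 were lower, when 8.36% of all genes were higher and 5.01% lower.

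The 5 photoreceptor transcription factors all fell in ONC/Ctrl, when 6.97% of all genes fell. The log2 fold changes were -0.19 (*Crx*), -0.12 (*Nrl*), -0.14 (*Nr2e3*), -0.13 (*Otx2*) and -0.22 (*Mef2c*), with limma adjusted p-values from 2.43e-04 to 0.0400. Rod gene scaling, which raised the median of all genes from 0.017 to 0.11, would make these falls smaller. Calls under that scaling were not examined for this list. *Crx* and *Otx2* encode the factors that bind TAATCC, and *Nrl* encodes the rod determinant that binds MAF sites. None of the 5 passed in TPEN/ONC by limma (differences 0.02 to 0.11, with *Crx*, *Nr2e3* and *Otx2* at an unadjusted p under 0.05). In that comparison 3.24% of all genes rose and 4.14% fell. *Crx* and *Nr2e3* were lower in TPEN/Ctrl, when 5.01% of all genes were lower. *Otx2* is also used by bipolar cells and *Mef2c* by other retinal cells.

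Other retinal markers gave mixed counts in ONC/Ctrl, to be read against the 11.7% of all genes that rose and the 6.97% that fell. Among those tested, 3 of 7 RGC markers rose and 1 fell, 1 of 5 amacrine markers rose and 1 fell, 1 of 7 bipolar markers fell, and 3 of 9 Müller glia markers rose and 3 fell. *Rbpms*, *Pou4f1* and *Slc17a6* averaged under 0.5 RPKM and were not tested. *Rbpms* was lower in every ONC library (0.357 to 0.444 RPKM) than in every Ctrl library (0.495 to 0.688 RPKM). *Pou4f1* was lower as well (0.0746 to 0.308 against 0.405 to 0.678 RPKM). *Slc17a6* was higher (0.347 to 0.484 against 0.185 to 0.321 RPKM). Of all genes tested, 15.8% lay lower and 20.7% higher in every ONC library than in every Ctrl library. Reads were few, at 33 to 41 in ONC and 46 to 62 in Ctrl for *Rbpms*. They were 8 to 33 and 38 to 71 for *Pou4f1*, and 43 to 60 and 20 to 40 for *Slc17a6*. Of the 11 cone cascade genes, 2 rose and 4 fell in ONC/Ctrl. All 11 were higher in TPEN/Ctrl, with a median log2 fold change of 0.65, when 8.36% of all genes were higher.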
